A study of Caenorhabditis elegans with 48 samples.

Results

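Binding by the Rb/E2F factors was examined at 6 genes of the small RNA pathways of C. elegans. They were the Argonaute genes csr-1, wago-1, wago-2 and hrde-1, the RNA-dependent RNA polymerase gene ego-1, and the nucleotidyltransferase gene mut-2, which the RefSeq table lists as rde-3. A peak belonged to a gene when it overlapped a window of 1 kb on either side of the transcript start, except that hrde-1 was taken by a window of 2788 bp whose ends are those of its peak in germline EFL-1 replicate 3. Of the 85924 deposited peaks, 57 overlapped these windows, and 45 of the 57 had a q-value below 0.001, out of 57695 such peaks in all. The q-value is the false discovery rate that the peak caller PeakSeq gave each peak against input DNA, and 0.001 was the threshold used here unless another is named. The 6 genes were picked by name, and those windows had been seen in earlier results of these data.

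The study assayed whole animals of 11 transgenic strains by ChIP-seq with an antibody to GFP, in biological replicates. Each strain carried a GFP:FLAG fusion on a low copy integrated transgene with an unc-119 rescue fragment, made in unc-119(ed3) worms by bombardment, so that the untagged protein of the animal was also present. In young adults, the pie-1 promoter drove EFL-1 (YL445), DPL-1 (YL390) and LIN-35 (YL402) in the germline, and the mex-5 promoter drove LIN-35 there as well (YL468). In L1 larvae, EFL-1 (YL424), DPL-1 (YL425) and LIN-35 (YL409) were driven by their own promoters for somatic expression, and the ges-1 promoter drove EFL-1 (YL418), DPL-1 (YL448), LIN-35 (YL398) and HPL-2 (YL416) in the intestine. Peak lists of 23 libraries were used, 8 from the germline and 15 from L1 larvae, with 2 replicates per strain and 3 for HPL-2. Because every germline strain was an adult and every other strain a larva, tissue and stage cannot be told apart. The titles abbreviate the stage as Ad for the pie-1 libraries and yAd for the mex-5 libraries, although the stage label is young adult for both, so any difference in age goes with the promoter. Each strain stands for 1 line.

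EFL-1 is an E2F protein that binds DNA as a heterodimer with the DP protein DPL-1, LIN-35 is the pocket protein of the Rb family that joins them in the DRM complex, and HPL-2 is a heterochromatin protein of the HP1 family. Argonautes are guided by small RNAs to complementary transcripts. In worms, RNA-dependent RNA polymerases such as EGO-1 make the 22G small RNAs that the WAGO proteins and CSR-1 carry. CSR-1 acts on germline-expressed genes and in chromosome segregation, WAGO-1 in P granules silences transposons and other targets, HRDE-1 carries silencing into the germline nucleus and across generations, and MUT-2 adds nucleotides to the ends of RNAs that template small RNAs.

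Around csr-1 and hrde-1 the study listed 1 match each to a motif it had found in its germline-specific sites. These stretches are shown because they were listed for the sites that overlap the germline peaks described next. The 24 bases in capitals are the match to that motif, and the 10 bases on each side are in lower case. Both were listed on the plus strand, csr-1 within the site chrIV:7957889-7958841 and hrde-1 within chrIII:4176171-4176526, and the names in that table carry ce4 as the build. Its coordinates were set beside the WS180 peaks as they stand, with no conversion, so their place relative to the peaks assumes that the builds coincide there.
csr-1: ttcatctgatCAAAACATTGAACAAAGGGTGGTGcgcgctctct
hrde-1: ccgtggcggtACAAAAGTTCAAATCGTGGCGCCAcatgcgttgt
The stretch from hrde-1 held the letters GGCGC of an E2F core (GGCGC or CCCGC, either strand) and the letters TTTGAA, on the minus strand, of a CHR element (TTTGAA or TTCGAA, either strand), while the stretch from csr-1 held neither. Of the 87 stretches of 44 bases listed for that motif, 40 (46.0%) held an E2F core, 16 (18.4%) a CHR element and 12 (13.8%) a longer E2F site (TTTCCCGC, TTTCGCGC, TTTGCCGC or TTTGGCGC, either strand), which neither gene's stretch held. A match of letters is a description of the stretch and not a measured site.

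At csr-1 (F20D12.1b, chromosome IV, start at 7958597, plus strand), a peak lay over the start in germline libraries of the E2F protein, its DP partner and the pocket protein, and in no L1 library. The q-value was 6.29e-39 in germline EFL-1 replicate 2 and 7.55e-121 in replicate 3. It was 9.75e-14 in germline DPL-1 replicate 1 and 8.05e-14 in replicate 4. Both E2F partners were thus called in each of their germline libraries. The q-values were smaller for EFL-1, but they were not set against read depth. Germline LIN-35 from the pie-1 promoter had a peak in replicate 2 (4.15e-11) and none in replicate 3, whose list was short, with 325 peaks against 701 in replicate 2. The mex-5 libraries had no peak at the threshold in the window, although replicate 1 held one of q = 0.00773 from 851 to 1050 bp into the gene. All 15 L1 libraries lacked a peak there even among all deposited peaks.

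The EFL-1 peaks at csr-1 were wide and ranked high in their libraries. They spanned 615 bp upstream to 720 bp inside the gene in germline EFL-1 replicate 2, and 687 bp upstream to 1548 bp inside in replicate 3. In germline EFL-1 replicate 3 the peak was 2236 bp wide, 6.65 times the median of that library, and only 28 of 4708 peaks were at least as wide. It stood at rank 64 of 4708 by q-value, and the replicate 2 peak at rank 94 of 2475. The DPL-1 peaks over the start were narrower, at 781 and 592 bp, and stood at ranks 96 of 1041 and 393 of 1932, and the LIN-35 peak was 793 bp wide, at rank 59 of 701. Further peaks inside the gene, in EFL-1 replicate 2 and DPL-1 replicate 4, ranked lower, at 1438 of 2475 and 1505 of 1932. A peak was present in 5 of 8 germline libraries (exact 95% interval 24.5 to 91.5%) and in 0 of 15 L1 libraries (interval up to 21.8%). The log2 odds ratio of germline over L1 libraries was 5.61, with 0.5 added to each cell, and a two-sided Fisher's exact test gave p = 0.00166. Over all 12926 merged regions of the 23 libraries the Benjamini-Hochberg adjusted p of this region was 0.113, so the difference did not pass the threshold of 0.05.

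**Figure D1:**
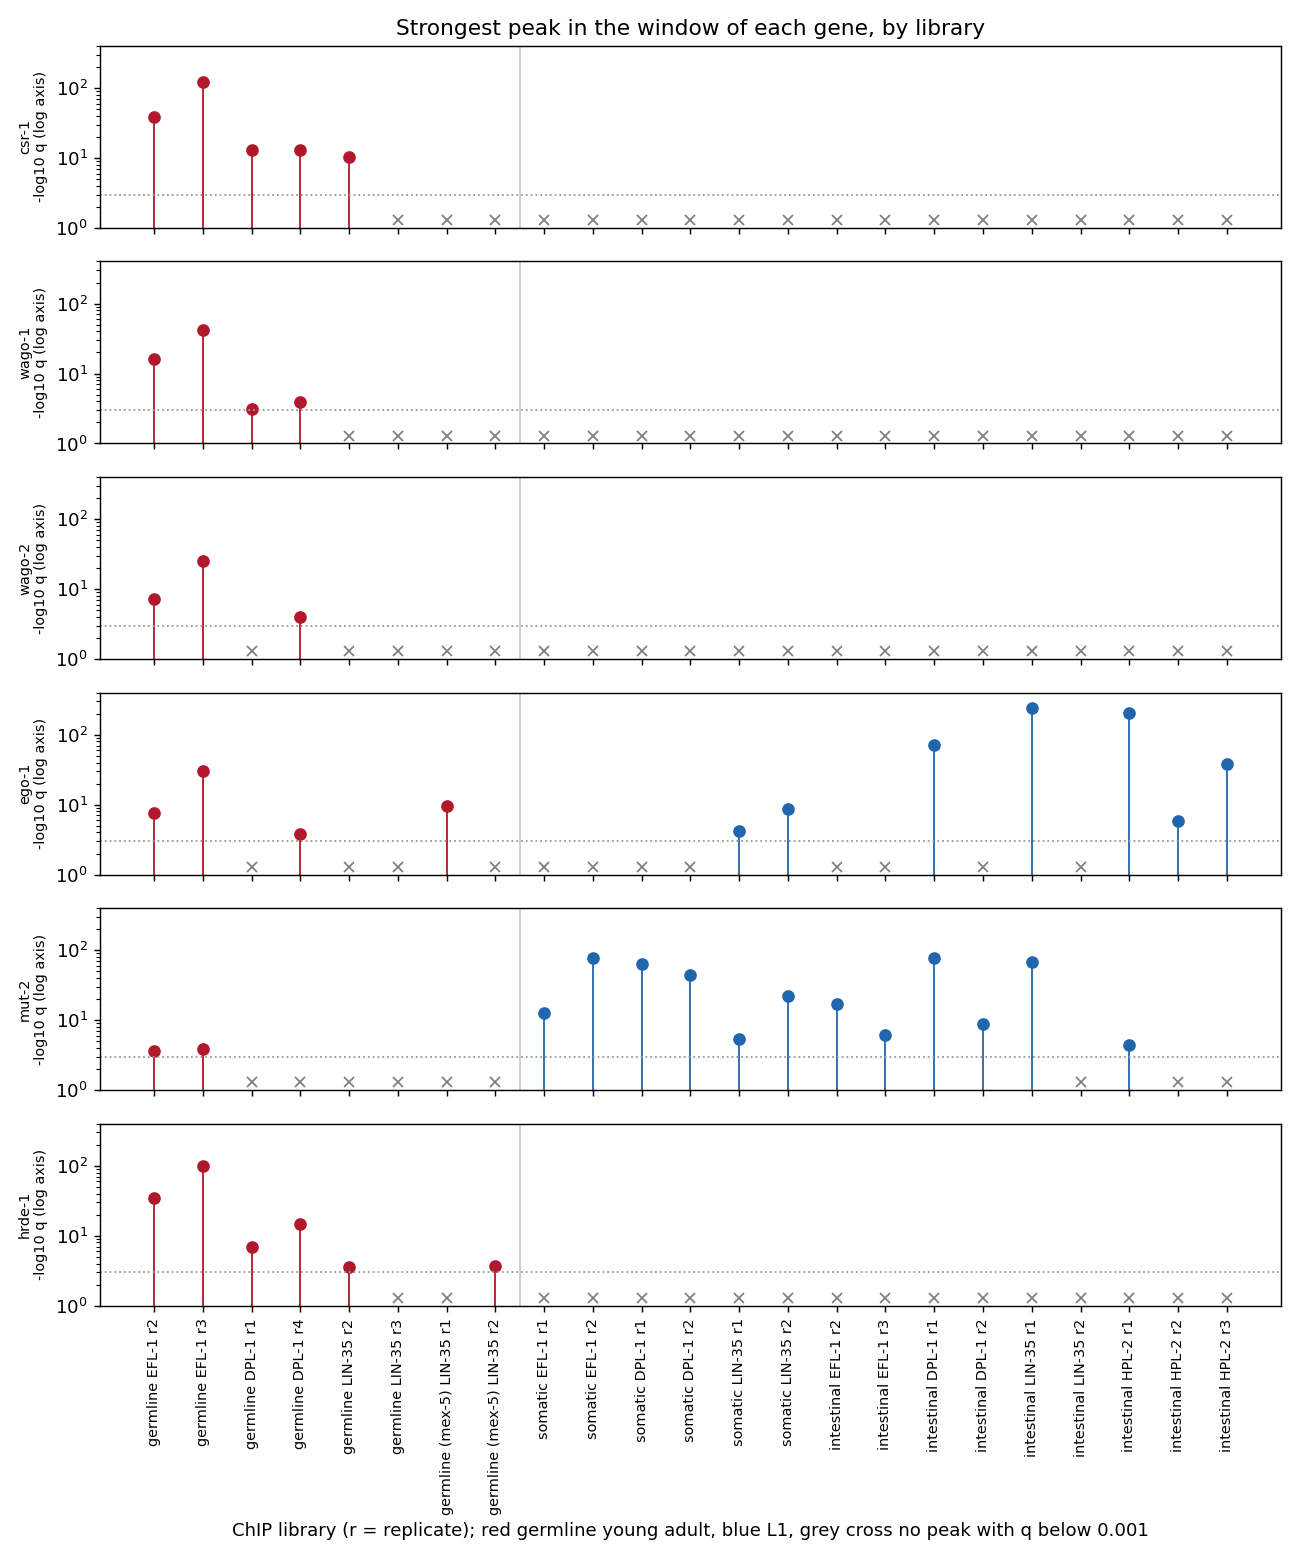
Smallest q-value in the window of each gene, as -log10 on a log axis, for each of the 23 libraries, not set against read depth. Red marks the 8 germline libraries and blue the 15 L1 libraries. A grey cross marks a window where no peak had q below 0.001. The dotted line marks q = 0.001. The csr-1, wago-1, wago-2 and hrde-1 panels hold germline points only, the mut-2 panel holds 12 L1 points and 2 low germline points, and the ego-1 panel holds both.

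hrde-1 (C16C10.3, chromosome III, start at 4176131, minus strand) had the same division. The q-value was 7.53e-35 in germline EFL-1 replicate 2 and 5.72e-100 in replicate 3. It was 1.18e-07 in germline DPL-1 replicate 1, 2.40e-15 in DPL-1 replicate 4 and 2.60e-04 in germline LIN-35 replicate 2. As at csr-1, the EFL-1 peaks had the smallest q-values, again not set against read depth. In 4 of these 5 libraries the peak was 230 to 336 bp wide and lay wholly upstream of the start, between 394 and 41 bp before it, the place of the site listed for the sequence shown above if the builds coincide. Germline EFL-1 replicate 3 instead had a single peak of 2788 bp that ran 2352 bp into the gene, and only 9 of 4708 peaks were at least as wide.

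LIN-35 had q-values of 2.00e-04 or more at hrde-1 in every germline library. Germline LIN-35 replicate 3 (q = 0.00217, from 344 to 15 bp upstream) and mex-5 replicate 1 (q = 0.00187, from 217 to 153 bp upstream) had peaks in the same place that missed the threshold. The mex-5 replicate 2 peak that passed (q = 2.00e-04) lay inside the gene, 1922 to 2217 bp past the start. In the window given for it, peaks were called in 6 of 8 germline libraries and in 0 of 15 L1 libraries, and in 8 of 8 and 0 of 15 among all deposited peaks, up to q = 0.01. Since that window is the extent of 1 of the germline peaks, these counts are a description. With a window of 1 kb on either side of the start, as used for the other genes and added after the values were seen, the count was 5 of 8 against 0 of 15 (log2 odds ratio 5.61, Fisher's exact p = 0.00166, Benjamini-Hochberg adjusted p = 0.113), the same as at csr-1.

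None of the 6 genes passed Fisher's exact test adjusted over all regions, and hrde-1 did not with either window (adjusted p = 0.0558 with the one given). Of the 12926 regions, 13 (0.101%) had a peak more often in germline than in L1 libraries at an adjusted p below 0.05, and 11 (0.0851%) the reverse. The pattern of csr-1, wago-1, wago-2 and hrde-1, a peak in at least 3 germline libraries and in no L1 library, was shared by 331 regions (2.56%). The cut of 3 is the lowest count among these genes, that of wago-2. The 12926 regions include those with a peak in fewer than 3 libraries, which could not show the pattern. The test is limited by 8 against 15 libraries, which allow no p below 2.04e-06, and replicates of a strain were counted as separate libraries. Factors were also unevenly divided, with LIN-35 in 4 of 8 germline and 4 of 15 L1 libraries and HPL-2 in 3 L1 libraries only. The test pooled all factors, so it compares unlike sets of factors as well as tissues. Counted as strains with a peak in at least 2 replicates, csr-1, wago-1 and hrde-1 were bound in 2 of 4 germline and 0 of 7 L1 strains (exact p = 0.109), where 0.00303 is the smallest p possible. By the same count wago-2 had 1 of 4 and 0 of 7 (exact p = 0.364), mut-2 1 of 4 and 5 of 7 (exact p = 0.242), and ego-1 1 of 4 and 2 of 7.

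Lists differed in length, which bears on every absence. The libraries held 261 to 6165 peaks with q below 0.001, germline libraries a median of 1149 and L1 libraries a median of 2739. The 4 germline LIN-35 libraries held 261 to 1257. The peak lists carry no read depth, and the depths the study lists elsewhere were not used here. The share of peaks on chromosome I, which carries wago-1, wago-2, ego-1 and mut-2, was 14.9 to 20.7% in the 8 L1 libraries of EFL-1 and DPL-1 and had a median of 13.1% in the 4 germline ones. It was lower still in several LIN-35 and HPL-2 libraries, at 4.28 and 5.54% in germline LIN-35 from the pie-1 promoter and 3.84% in HPL-2 replicate 2. The part of this low share in the absences at those 4 genes was not tested.

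At wago-1 (R06C7.1, chromosome I, start at 7235383, plus strand) EFL-1 and DPL-1 were called in the germline and LIN-35 was not. The q-value was 5.09e-17 in germline EFL-1 replicate 2 and 7.50e-43 in replicate 3, against 8.39e-04 in DPL-1 replicate 1 and 1.16e-04 in replicate 4. The DPL-1 replicate 1 peak was close to the threshold, at rank 1001 of 1041 in its list. All 4 peaks lay upstream, between 914 and 13 bp before the start, and the study assigned this site to wago-1 and to R06C7.2. None of the 4 germline LIN-35 libraries and none of the 15 L1 libraries had a peak in the window, also among all deposited peaks. The count of 4 of 8 against 0 of 15 gave a log2 odds ratio of 4.95, Fisher's exact p = 0.00791 and an adjusted p of 0.187 (Benjamini-Hochberg).

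A second region further upstream of wago-1 held larval peaks. It lay 2361 to 1732 bp before the start, was assigned to C01H6.9, which RefSeq names hasp-1, a haspin kinase gene, and held peaks in 10 of 15 L1 libraries and in 2 of 8 germline libraries (Fisher's exact p = 0.0894, adjusted p = 0.578). Its smallest L1 q-values were those of somatic DPL-1 replicate 1 (q = 3.39e-36), intestinal LIN-35 replicate 1 (3.35e-29) and somatic EFL-1 replicate 2 (1.86e-27). Germline EFL-1 had a peak here in both replicates (4.22e-04 and 2.61e-09), weaker than at wago-1 itself. The other 5 L1 libraries had a peak in neither place. A window of 2 kb on either side took in part of this region, and the count for wago-1 was then 4 of 8 against 7 of 15 (log2 odds ratio 0.18).

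wago-2 (F55A12.1, chromosome I, start at 5368332, plus strand) showed the germline pattern in the fewest libraries. The q-value was 5.57e-08 in germline EFL-1 replicate 2, 2.43e-26 in replicate 3 and 9.96e-05 in germline DPL-1 replicate 4. Germline DPL-1 replicate 1 had no peak, and mex-5 LIN-35 replicate 1 had one of q = 0.00271, from 460 to 201 bp upstream. The 3 called peaks spanned 643 bp upstream to 76 bp inside the gene, and the site was also assigned to F55A12.10, which RefSeq names zhp-1, a meiotic RING finger gene. The count of 3 of 8 against 0 of 15 gave a log2 odds ratio of 4.30, Fisher's exact p = 0.0316 and an adjusted p of 0.365. The 2 peaks at q below 1e-05 were both those of EFL-1.

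**Figure D2:**
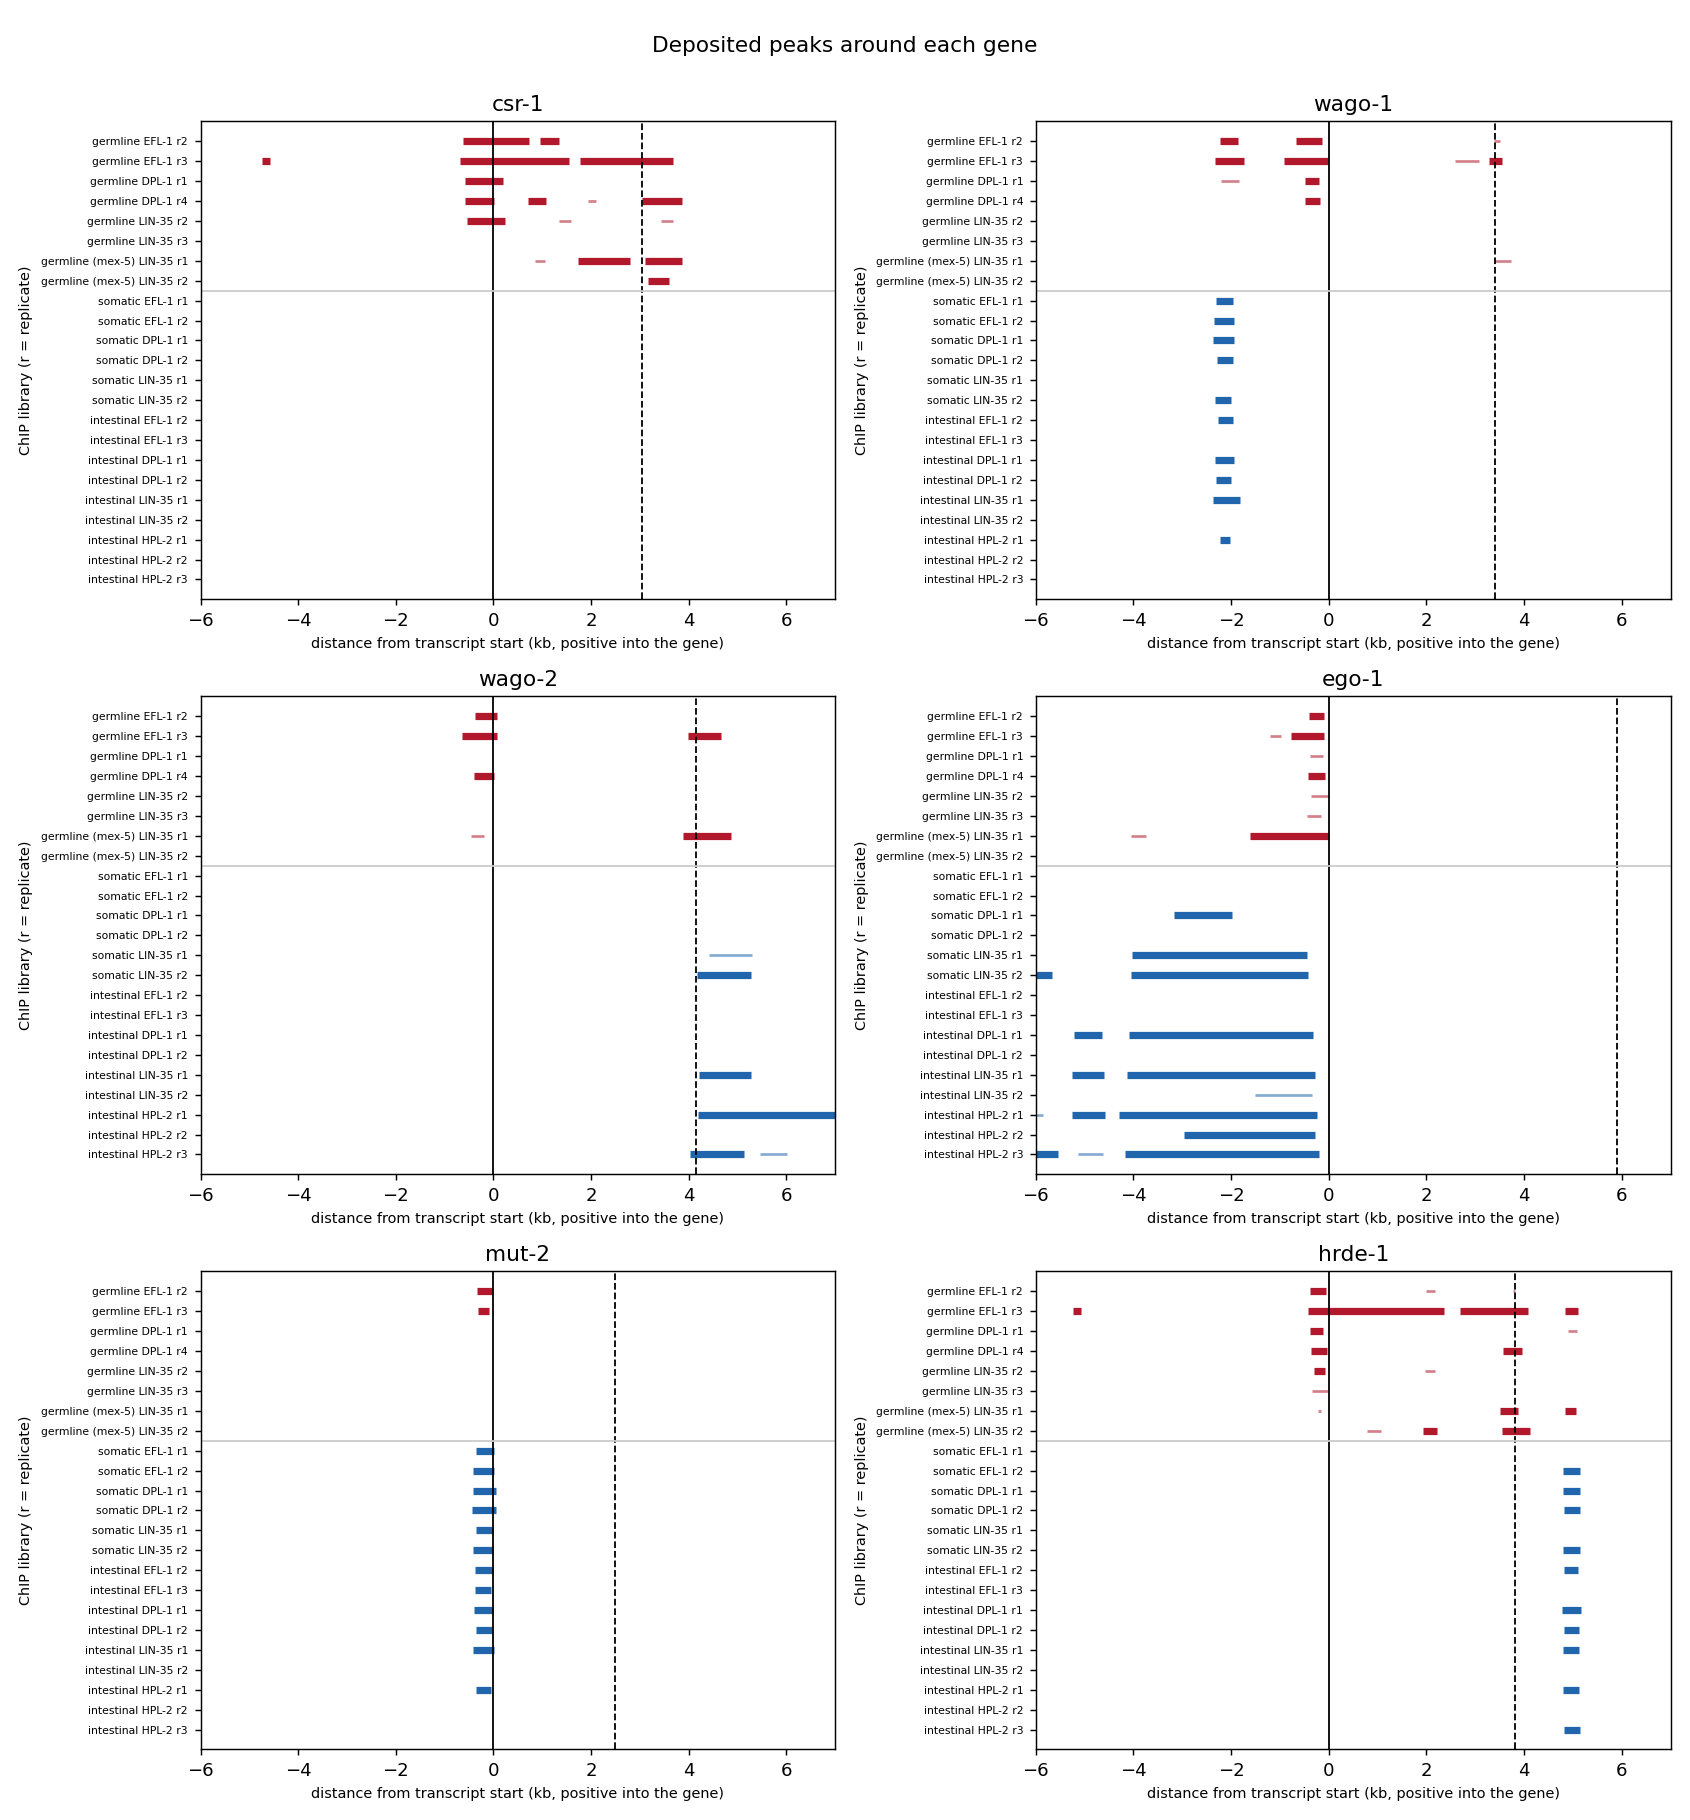
Position of every deposited peak around each gene, by library, in kb from the transcript start with positive values into the gene. Thick bars have q below 0.001 and thin bars q from 0.001 to 0.01, red bars are germline and blue bars L1 libraries, the solid line is the start and the dashed line the transcript end. At ego-1 the blue bars extend upstream over several kb, at wago-1 and hrde-1 the blue bars stand apart from the gene's own start, and at csr-1 there are none.

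At ego-1 (F26A3.3, chromosome I, start at 7656329, minus strand) germline and L1 libraries both had peaks in the window, but most of the germline peaks were narrower and nearer to the start. In the germline the q-value was 2.20e-08 in EFL-1 replicate 2, 1.22e-30 in EFL-1 replicate 3, 1.55e-04 in DPL-1 replicate 4 and 3.85e-10 in mex-5 LIN-35 replicate 1. The EFL-1 and DPL-1 peaks were 316 to 674 bp wide and lay 763 to 67 bp upstream of the start, while the mex-5 peak was 1630 bp wide, 5.28 times the median of its library, and reached 1623 bp upstream, into the stretch that the L1 peaks covered. Peaks that missed the threshold lay in the same place in DPL-1 replicate 1 (q = 0.00433), LIN-35 replicate 2 (0.00164) and LIN-35 replicate 3 (0.00972). Hence 7 of 8 germline libraries had a deposited peak here and 4 of 8 one at the threshold.

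In L1 larvae the ego-1 window was entered by a broad domain that extended upstream, away from the gene. The widths of its 7 peaks were 2668 to 4046 bp with a median of 3770 bp, 7.69 to 11.4 times the median width in the same library, and all 7 were among the widest 0.843% of peaks in their lists. The near edge lay 205 to 454 bp before the start and the far edge 2958 to 4295 bp before it. Intestinal LIN-35 replicate 1 (q = 8.35e-241, rank 13 of 6165) and HPL-2 replicate 1 (5.81e-202, rank 13 of 5294) had the smallest q-values, which were not set against read depth. The labels give these 2 libraries and HPL-2 replicates 2 and 3 the same date, and all 3 HPL-2 libraries the same adaptor, so whether the HPL-2 replicates are independent is not known from them. Intestinal DPL-1 replicate 1 followed with 8.73e-73, HPL-2 replicate 3 with 1.97e-38 and HPL-2 replicate 2 with 1.43e-06. In the soma LIN-35 had 6.76e-05 in replicate 1 and 2.70e-09 in replicate 2.

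The domain was thus called in 3 of 3 HPL-2 libraries and in 3 of 4 L1 LIN-35 libraries, with the remaining one, intestinal LIN-35 replicate 2, at q = 0.00488. It was called in 1 of 4 L1 DPL-1 libraries in the window, and somatic DPL-1 replicate 1 had a peak further up (q = 5.76e-04, from 3179 to 1987 bp upstream). No L1 EFL-1 library had a peak within the window or the domain. These counts by factor were not tested. The next protein-coding gene upstream in the RefSeq order is F26A3.4. Between germline and L1 libraries the window held a peak in 4 of 8 and 7 of 15 (log2 odds ratio 0.18, Fisher's exact p = 1). When only peaks centred within 500 bp of the start were counted, a choice made after the values were seen, the count was 3 of 8 against 0 of 15. The width and edge of the L1 peaks fix that 0, so it is no separate result.

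**Figure D3:**
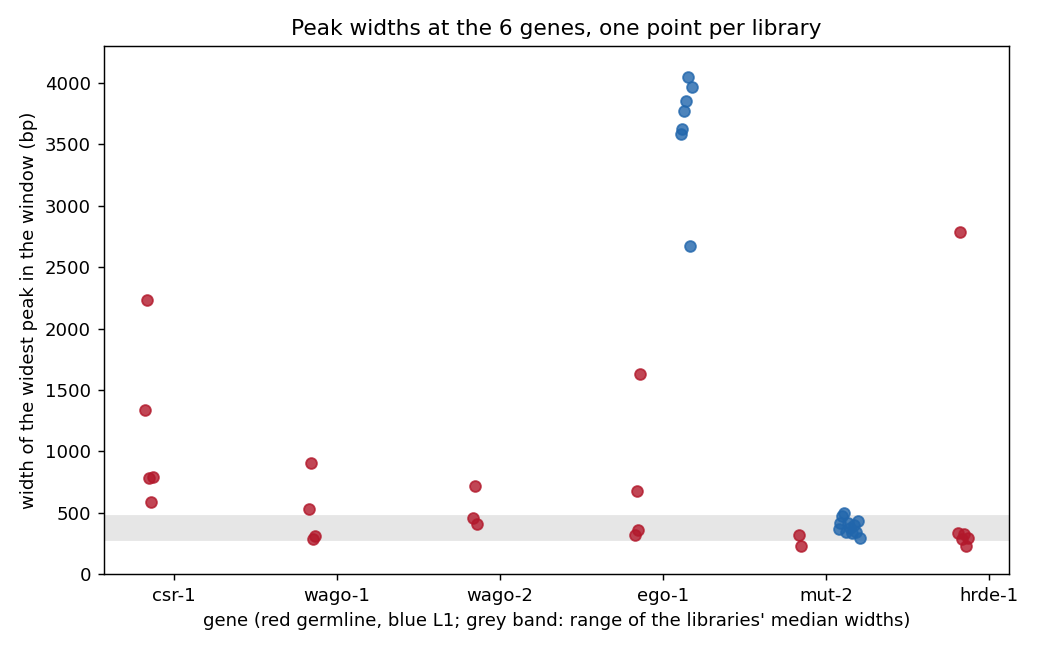
Width in bp of the widest peak with q below 0.001 in each gene's window, 1 point per library, red for germline and blue for L1, with the range of the libraries' median widths as a grey band. The 7 L1 points at ego-1 lie between 2668 and 4046 bp, above the germline points of that gene, and the mut-2 points lie between 228 and 499 bp.

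mut-2 (K04F10.6a, chromosome I, start at 6358396, minus strand) had the opposite division to csr-1, wago-1, wago-2 and hrde-1. It held a peak in 12 of 15 L1 libraries and in 2 of 8 germline libraries (log2 odds ratio -3.22, Fisher's exact p = 0.0228, adjusted p = 0.365). This direction was the common one, since 81.3% of all 3051 transcript starts placed by the study's lists had a higher share in L1. In the soma the q-values were 2.79e-13 and 4.15e-77 for EFL-1, 6.87e-64 and 1.22e-44 for DPL-1, and 3.73e-06 and 1.20e-22 for LIN-35, in replicates 1 and 2. All 6 somatic libraries therefore had a peak.

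In the intestine mut-2 had peaks of EFL-1 (1.67e-17 in replicate 2 and 6.18e-07 in replicate 3) and of DPL-1 (3.74e-79 in replicate 1 and 1.17e-09 in replicate 2). LIN-35 had 3.12e-69 in replicate 1 and no peak in replicate 2, and HPL-2 had 4.31e-05 in replicate 1 and none in replicates 2 and 3. The libraries without a peak, LIN-35 replicate 2 and HPL-2 replicates 2 and 3, had 9.10, 3.84 and 9.97% of their peaks on chromosome I. Their lists held 1374, 677 and 2579 peaks, and the part of list length or read depth in these absences was not tested. In the germline the 2 EFL-1 libraries had peaks near the threshold, 2.56e-04 and 1.56e-04, and DPL-1 and LIN-35 had none. The largest L1 q-value (4.31e-05) was smaller than that of either germline peak. The same germline EFL-1 libraries gave 6.29e-39 and 7.55e-121 at csr-1.

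The mut-2 peaks were narrow. The 12 L1 peaks were 294 to 499 bp wide with a median of 388.5 bp, at most 1.23 times their library's median, and they lay between 441 bp upstream and 57 bp inside the gene. Both germline peaks lay within this span. The study assigned the site to mut-2 and to K04F10.3.

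Among the 6 genes the libraries with a peak overlapped to different degrees. As a description over the 23 libraries, csr-1 and hrde-1 shared 5 of the 6 libraries in which either region had a peak, csr-1 and wago-1 4 of 5, and wago-1 and wago-2 3 of 4. mut-2 shared 2 of 17 with csr-1, and the libraries shared were those of germline EFL-1. ego-1 and mut-2 shared 8 of 18. EFL-1 in the germline was the single factor with a peak in both replicates at all 6 genes, and at csr-1, wago-1, wago-2 and hrde-1 the replicate 3 peak, from the longest germline list of 4708 peaks, had the smallest q-value.

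The most similar regions were sought among 2353 other regions with an assigned gene, by the share of libraries with a peak in common (Jaccard index) and then by Spearman's rho of -log10 q over the 23 libraries. The csr-1 pattern was matched in every library by 17 regions, and 13 of them tied also in rho. The first 3 by position were those of T21E3.1, which RefSeq names egg-4, of C55B7.11 with glh-2, and of K07A12.2, which RefSeq names egg-6. The same 3 led for hrde-1 (Jaccard 0.833, rho 0.918, 14 tied). For wago-1, 39 regions had the same calls, and the first 3 of 34 tied were Y48G1A.2, deps-1 with Y65B4BL.4, and Y54E10A.12, which RefSeq names syp-5. For wago-2, 27 did, led by Y48G1BM.1 with Y48G1BM.8, scm-1 and dhc-1.

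mut-2 had 18 regions with the same calls, and the most similar was Y106G6H.15 with Y106G6H.16 (rho 0.986), followed by T25G3.3 and Y87G2A.10. No region matched ego-1 in every library. Its nearest were K08F8.1, which RefSeq names mak-1 (Jaccard 0.786, rho 0.799), pde-2 (0.786, rho 0.795) and mir-51 (0.733, rho 0.728), all regions with more L1 than germline libraries.

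Other small RNA genes gave the wider setting. Of 43 listed genes, all matched in the RefSeq table, 19 could be placed by a transcript position in the study's target lists, 13 of them beside the 6 described above. Only targets of the study have a position in those lists and chromosome V was left out, so a placed gene was bound somewhere by construction. None of the 13 passed the adjusted threshold in either direction. For 11 of the 13 (84.6%) the share of libraries with a peak was higher in L1 than in the germline, close to the 81.3% of all 3051 transcript starts placed by the lists, so this count is not particular to small RNA genes.

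The placed Argonaute genes beside the 4 germline ones were wago-4, a germline Argonaute of RNA inheritance, with 5 of 8 germline and 7 of 15 L1 libraries (Fisher's exact p = 0.667), and alg-2, a microRNA Argonaute, with 4 and 7 (p = 1). Neither lacked L1 peaks as csr-1, wago-1, wago-2 and hrde-1 did. rrf-3, the RNA-dependent RNA polymerase of the 26G pathway, had 3 of 8 and 10 of 15 (Fisher's exact p = 0.221), compared with 4 and 7 at ego-1.

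The placed partners of Dicer and of the RNA-dependent RNA polymerases had peaks in a larger share of L1 than of germline libraries, though none passed the adjusted test. This was also the direction of 81.3% of all placed transcript starts. Of the same class, dcr-1, drh-1, drh-3 and eri-1 were not placed. rde-4, a double-stranded RNA binding partner of Dicer, had 3 of 8 and 14 of 15 (Fisher's exact p = 0.0086, adjusted p = 0.196), and ekl-1, a Tudor protein gene, had 2 and 11 (p = 0.0393, adjusted p = 0.419). pir-1, a phosphatase gene, had 1 and 8, and eri-3 had 0 and 4. Of the mutator genes, mut-7 had 3 and 9, rde-8 3 and 12, rde-2 5 and 13, and mut-16 2 and 4, so that mut-2 lay among the more unequal of its class with 2 and 12. Of the nuclear RNAi genes, nrde-2 had 5 and 14 and nrde-4 2 and 10.

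**Figure D4:**
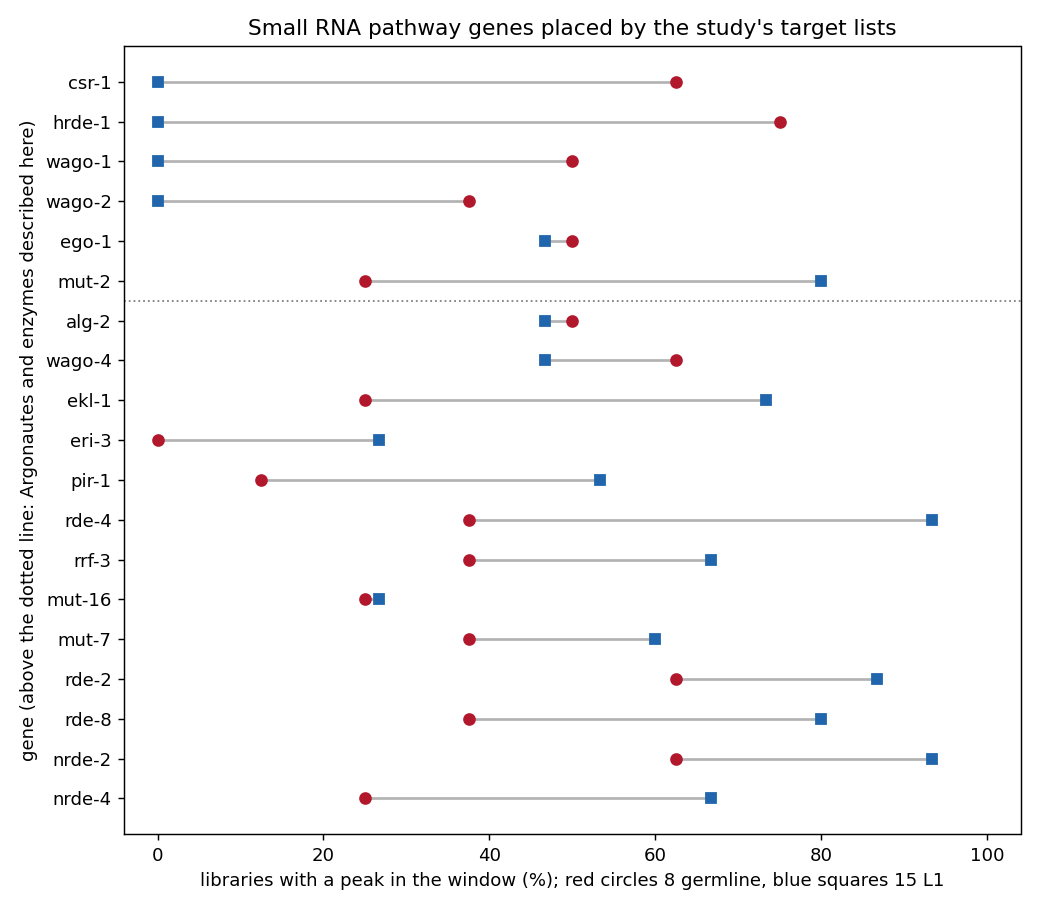
Percent of the 8 germline libraries (red circles) and of the 15 L1 libraries (blue squares) with a peak of q below 0.001 in the window of each of the 19 placed small RNA genes. At csr-1, hrde-1, wago-1 and wago-2 the blue squares are at 0, whereas none of the 13 genes under the dotted line has 0 L1 libraries.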

How the data were processed

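Anti-GFP ChIP-seq was measured in 23 libraries of 11 strains; the 22 input samples entered only through peak calling. Per the file headers and the paper, PeakSeq was run by the authors on each library against input DNA, in WormBase WS180 coordinates, and deposited each peak's start, end and q-value, up to q = 0.01. For HPL-2 replicate 3 no input sample was among those used here. In 3 libraries 2 runs were combined. No source used here names the aligner. Longer lists make a peak more likely at any locus, and merged regions join neighbouring peaks.

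Peaks with q below 0.001 were kept, and overlapping peaks of all libraries were merged. Germline and L1 libraries were compared per region by a two-sided Fisher's exact test, with Benjamini-Hochberg adjustment over all regions, in Python 3.11.15 with SciPy 1.17.1. For windows set by the alternatives, the adjusted p was read from the distribution over regions. The steps were tested on simulated data. Intervals are exact at 95%, and cover counting error only. Transcript starts and gene assignments came from the study's target lists, without chromosome V, which is offset there. RefSeq (WBcel235) served for names only. The members and lists were chosen with earlier results of these data known. Named were the 6 genes, regions within 5 kb, the 3 most alike regions per gene and the listed small RNA genes. The alternatives were other q-value thresholds, equal numbers of peaks, strains as units, left-out libraries, blocks for replicate number and adaptor, and other windows and merging.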

Additional observations from a re-analysis of the deposited data

Results flagged for a closer look

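Peaks outside the windows lay over the transcript ends of csr-1 and hrde-1, in data that the comparison at the starts did not use. These ends were picked because they held peaks in at least 3 germline libraries and in no L1 library. The counts and the p-value given for them are therefore a description and no test. At csr-1, whose transcript is 3049 bp long, a region from 1728 to 3865 bp past the start held peaks in 4 of 8 germline libraries and in 0 of 15 L1 libraries (Fisher's exact p = 0.00791, adjusted p = 0.187). The q-values were 2.87e-24 in germline EFL-1 replicate 3, 2.07e-10 in germline DPL-1 replicate 4, 5.05e-10 in mex-5 LIN-35 replicate 1 and 5.63e-06 in mex-5 LIN-35 replicate 2. At hrde-1, whose transcript is 3824 bp long, a region from 2698 to 4115 bp past the start held peaks in the same 4 libraries and in 0 of 15 L1 libraries, with q-values of 2.40e-17, 9.88e-05, 1.17e-05 and 2.42e-05. The mex-5 libraries therefore had peaks at the ends of both genes and none at the threshold over either start. Their peaks were not confined to the ends. Replicate 1 also had one from 1728 to 2797 bp past the start of csr-1 (q = 5.39e-07), and replicate 2 one from 1922 to 2217 bp past that of hrde-1 (2.00e-04).

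Peaks at transcript ends were less common than peaks at starts in each of these libraries, but they were not rare in germline EFL-1 replicate 3. Among 1653 transcripts of at least 2 kb placed by the study's lists, 34 (2.06%) had a peak within 500 bp of the end in mex-5 replicate 2, 115 (6.96%) in mex-5 replicate 1, 129 (7.80%) in germline DPL-1 replicate 4 and 296 (17.9%) in germline EFL-1 replicate 3. A peak within 500 bp of the start was found at 342 (20.7%) in mex-5 replicate 1 and at 75 (4.54%) in mex-5 replicate 2, so lacking one was usual there. wago-2 also had an end peak in mex-5 replicate 1 (5.98e-11) and in germline EFL-1 replicate 3 (3.05e-06), and unlike csr-1 and hrde-1 it also had one in 4 L1 libraries, somatic LIN-35 replicate 2, intestinal LIN-35 replicate 1 and HPL-2 replicates 1 and 3. At the end of wago-1, germline EFL-1 replicate 3 alone had a peak at the threshold (6.73e-04). The share of transcripts with end peaks in several germline libraries and in no L1 library was not counted. The ends were looked at after the peaks had been seen, and neighbouring genes were not set apart.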

How the results depend on the processing

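The 6 genes were recomputed under 202 combinations of gene and alternative, and the direction was kept in 186. This count is no measure of robustness, since many outcomes were fixed in advance. Without an L1 peak at csr-1, wago-1, wago-2 and hrde-1, no left-out library could reverse the direction there. The blocks left every odds ratio as it was. Also counted as kept were wago-1 with a window of 2 kb (log2 odds ratio 0.18) and ego-1 with peaks centred within 500 bp. The 16 exceptions were all at ego-1, with a log2 odds ratio of 0.00 in 8, each without 1 L1 library, and reversed in 8. Its exact p was at least 0.621 in each. There the log2 odds ratio of 0.18 became -0.10 with q below 1e-05, -0.97 with equal numbers of peaks per library (the strongest 261), -0.08 with strains as units and -0.18 with a window of 2 kb, and ranged from -0.18 to 0.54 when 1 library was left out. hrde-1, in the window given by 1 of its own peaks, had an adjusted p below 0.05 in 2 combinations. These were all deposited peaks (9.04) and the set without germline (mex-5) LIN-35 replicate 1 (7.07, exact test with adjusted p = 0.0499). Since that window is the extent of a germline peak, both values are a description. With windows of 1 kb and 500 bp the exact test gave an adjusted p of 0.113, and with peaks centred within 500 bp 0.187. Leaving out 1 library moved hrde-1 between 6.09 and 7.07, csr-1 between 5.32 and 6.09, wago-1 between 4.59 and 5.32, wago-2 between 3.82 and 4.59 and mut-2 between -3.95 and -2.97. With equal numbers of peaks, wago-1, wago-2 and mut-2 had no peak in any library and gave no value.

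Counts over all regions moved more. The 13 regions with more germline peaks became 33 with all deposited peaks, 4 with q below 1e-05, 68 with equal numbers of peaks, 40 in tiles of 2 kb, and 0 with strains as units or with the adaptor block. The 11 with more L1 peaks became 2 with q below 1e-05, 41 with equal numbers of peaks, 62 in tiles, 25 without the 3 HPL-2 libraries, and 0 without the 2 mex-5 libraries, with strains as units or with the adaptor block. Leaving out 1 library gave 5 to 28 and 0 to 39. With strains as units the smallest possible exact p is 0.00303, which leaves little room to pass an adjustment over 12926 regions. The counts of 0 with strains as units therefore say little about the processing. The cause of the other moves was not tested.

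Replicate numbers mark no shared batch in the labels. Among 79 pairs of same-numbered libraries from different strains, the correlation of deviations had a median of -0.00682 and ranged from -0.257 to 0.388. It was above 0.1 in 9 pairs. Pairs with different numbers were not compared. With the replicate block the regions called were 0 in both directions, and the adjusted p was 0.261 for hrde-1, 0.409 for csr-1, 0.548 for wago-1, 0.811 for wago-2, 0.718 for mut-2 and 1 for ego-1, with odds ratios as before. Absence of a peak in a short list is a weak statement, and depth in reads was not used here.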

Other observations

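Larval peaks lay next to hrde-1 and at the end of wago-2, outside their windows. Downstream of hrde-1, a region 4768 to 5157 bp past its start, assigned to C16C10.5, which RefSeq names rnf-121, held peaks in 10 of 15 L1 libraries and in 2 of 8 germline libraries (Fisher's exact p = 0.0894, adjusted p = 0.578). Its smallest q-value was 7.76e-32, in intestinal DPL-1 replicate 1, and the germline peaks were those of EFL-1 replicate 3 (5.73e-09) and mex-5 LIN-35 replicate 1 (3.68e-05). Those L1 libraries had no peak in the hrde-1 window.

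Over and past the end of wago-2, whose transcript is 4142 bp long, lay a region assigned to C24A11.2. It began 3887 bp from the wago-2 start and held peaks in 7 of 15 L1 and 2 of 8 germline libraries (Fisher's exact p = 0.4). HPL-2 replicate 1 had a single peak of 5633 bp there (q = 1.82e-98), while HPL-2 replicate 3 (1.98e-08) and intestinal LIN-35 replicate 1 (1.82e-06) had peaks of 1104 and 1079 bp.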
